A study of Mus musculus with 11 samples.

Results

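The autophagy machinery genes were taken by symbol from the gene table: every symbol that starts with Atg and a digit, Map1lc3, Gabarap, Wipi, or Ulk and a digit, together with Becn1, Sqstm1, Optn, Nbr1, Pik3c3, Pik3r4, Rb1cc1, Uvrag, Ambra1, Pink1, Fundc1 and Bnip3l. The rule used no measured value and found 41 of the 13985 listed genes. Of these, 40 reached the mean of 0.5 FPKM over all libraries that was asked of a gene for testing, and Ulk4, with 0.613 ± 0.161 FPKM at day 3, 0.485 ± 0.0431 FPKM at day 7 and 0.353 ± 0.0521 FPKM in control (SD), did not. The sequenced RNA came from kidney cells of C57BL/6 mice, labelled as primary fibroblasts. There were 4 samples at day 3 and 4 at day 7 of unilateral ureteral obstruction (UUO), in which surgery blocks the outflow of 1 kidney and fibrosis follows, and 3 samples of control kidneys. All 3 groups share the same handling, a digestion of the tissue followed by enrichment of the cells in DMEM with serum, L-glutamine and penicillin/streptomycin, and the labels name no transgene, drug or age. The question that the design poses is how these cells differ after obstruction, at each of the 2 times. No label says that the replicates of a group came from separate animals, so each p-value is set against a spread between samples that could be technical.

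Autophagy encloses cytoplasm, aggregates or organelles in a double membrane, the autophagosome, which then fuses with the lysosome so that its content is broken down. The ULK kinase complex starts the process, a class III phosphatidylinositol 3-kinase (PI3K) complex marks the growing membrane with the lipid PI3P, and ATG2 proteins and ATG9 feed it with lipid. Ubiquitin-like conjugation enzymes then attach the ATG8 proteins (the LC3 and GABARAP families) to this membrane, where receptors such as p62 bring selected cargo. In the kidney, autophagy is known from tubule cells and podocytes, where it maintains the cells under stress. An mRNA level is no measure of autophagic flux, which depends largely on protein modification and lysosomal turnover.

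Levels are FPKM, fragments per kilobase of transcript and per unit of mapped fragments, and the depth behind them is unknown because the tables hold no counts. Markers of several kidney cell types moved with the groups. The lists were chosen with earlier results of these data known, so their counts describe and do not test. Among all genes, 44.4% were called higher and 21.0% lower at day 3, and 46.3% and 23.5% at day 7. All 10 fibroblast and stroma markers rose at both days, to sums of 485 to 1006 FPKM at day 3 and 1476 to 3763 FPKM at day 7, against 49.9 to 62.4 FPKM in control. All 12 proximal tubule markers fell at both days, to 1002 to 1894 FPKM at day 3 and 549 to 706 FPKM at day 7, against 13045 to 16163 FPKM in control, so the control libraries, labelled as fibroblasts, summed far more over the tubule markers than over the fibroblast markers. All 11 listed genes of the 10 macrophage markers rose, to 3912 to 6477 FPKM at day 3 and 4981 to 5623 FPKM at day 7, against 629 to 950.3 FPKM in control. All 6 red blood cell genes fell, to 53.8 to 379 FPKM at day 3 and 62.5 to 176 FPKM at day 7, against 2376 to 6411 FPKM in control. Distal nephron markers summed to 577 to 909.8 FPKM at day 3, 439.8 to 528 FPKM at day 7 and 2008 to 2164 FPKM in control, with 8 of 9 lower at day 3 and 9 of 9 at day 7. Podocyte markers summed to 12.04 to 21.1 FPKM, 13.6 to 25.1 FPKM and 121 to 137 FPKM in the same groups (5 of 6 lower at day 3, 4 of 6 at day 7), and endothelial markers to 61.7 to 74.5 FPKM, 56.9 to 89.1 FPKM and 65.5 to 76.5 FPKM (2 of 8 higher at both days, 3 lower at day 3 and 2 lower at day 7). No marker of these 7 lists stood at 0 in all libraries of a group. The 13 genes of the mitochondrial genome took 6.06% to 7.29% of the summed FPKM at day 3, 4.27% to 7.94% at day 7 and 25.4% to 35.9% in control. In bulk samples, fewer cells of a type and less RNA per cell cannot be told apart, and the part of these markers' cells in the results on autophagy genes was not tested. Day 3 replicate 1 stood apart in 57 genes with at least 10 times the level of any other library, against 0 to 1 such genes in the other libraries. None of the 57 is an autophagy machinery gene.

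Autophagy machinery genes were called in both directions after obstruction. At day 3, 17 members rose, 7 fell and 16 were not called in the limma test against control (adjusted p under 0.05, Benjamini-Hochberg over 13428 genes). That is 60% of the 40 members tested, beside 65.3% of all genes tested, with 44.4% of all genes called higher and 21.0% called lower. At day 7, 16 members rose, 6 fell and 18 were not called, 55% of the members beside 69.8% of all genes (46.3% higher and 23.5% lower). The median log2 fold change (log2FC) of the members was 0.17 at day 3 and 0.20 at day 7, and that of all genes 0.26 and 0.28. The libraries of the 2 groups did not overlap in 15 members that were higher and 8 that were lower at day 3, where 44.1% and 20.6% of all genes did so. At day 7 this held for 16 members higher and 6 lower, where the shares of all genes were 44.7% and 23.8%. Where a pair of log2FC values is given for a gene, the first is day 3 and the second day 7, each against control.

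The split between rise and fall rests on the scale. With each library centred on its median, the counts at day 3 were 7 higher and 13 lower, and for all genes 3743 higher and 4701 lower in place of 5957 and 2816. At day 7 all genes counted 4251 higher and 4654 lower with median centring, in place of 6217 and 3162. With quantile normalization the members counted 9 higher and 11 lower at day 3, and with rescaling to TPM (every library set to the same sum) 27 higher and 2 lower. The median of all genes stood at -0.07 with median centring, -0.01 with quantile normalization and 0.70 with TPM at day 3, so each scale moves its own zero. At day 7 the counts were 13 lower by both median centring and quantile normalization, and 29 higher with TPM. Without control replicate 1, 10 members were called higher at day 3, and without day 3 replicate 1, 13 were. Across all 22 alternative settings tried, Ulk1, Atg101, Atg14, Uvrag, Atg2a, Atg2b and Atg12 stayed called higher at both days, and Atg4d and Pink1 stayed called lower at both days. For these 7 rises and 2 falls, none of the settings tried and no single library decided the call. The share of all genes that stay called in this way is not given here, so nothing particular to the members is read from these counts. With all libraries kept, other calls ended on another scale. At day 3, median centring ended the calls of Ulk2, Pik3r4, Ambra1, Atg3, Atg7, Atg16l1, Atg16l2, Map1lc3b, Sqstm1 and Optn, and quantile normalization those of the same genes but Map1lc3b and Sqstm1. At day 7 both ended those of Pik3r4, Atg3, Atg7, Atg16l1 and Fundc1. TPM ended the falls of Atg5, Atg10, Atg4a, Map1lc3a and Gabarapl1 at day 3 and of Atg10, Map1lc3a and Gabarapl2 at day 7. Scaling each library to the same sum of nuclear genes ended the calls of Ulk2, Atg3, Atg4a and Optn at day 3. At day 7 that scale ended the call of Atg10, and Ambra1 was called higher (adjusted p = 0.0322). The median of all genes then stood at 0.31 at day 3 and 0.36 at day 7. Some members not called as deposited were called in opposite directions on other scales. Gabarapl2 and Bnip3l at day 3, and Atg13, Atg5, Optn and Nbr1 at day 7, were called lower with median centring and higher with TPM. Ulk3 at day 7 was called lower with quantile normalization and higher with TPM. Other members not called as deposited were called higher with TPM. They were Atg13, Pik3c3, Becn1, Atg9a, Wipi2, Gabarap, Nbr1 and Fundc1 at day 3. At day 7 they were Rb1cc1, Pik3c3, Ambra1, Wipi2, Atg4c, Gabarap, Sqstm1 and Bnip3l. With both median centring and quantile normalization, Ulk3, Wipi1, Atg4b and Atg4a-ps at day 3 and Atg4a, Atg4b and Atg4a-ps at day 7 were called lower.

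**Figure D1:**
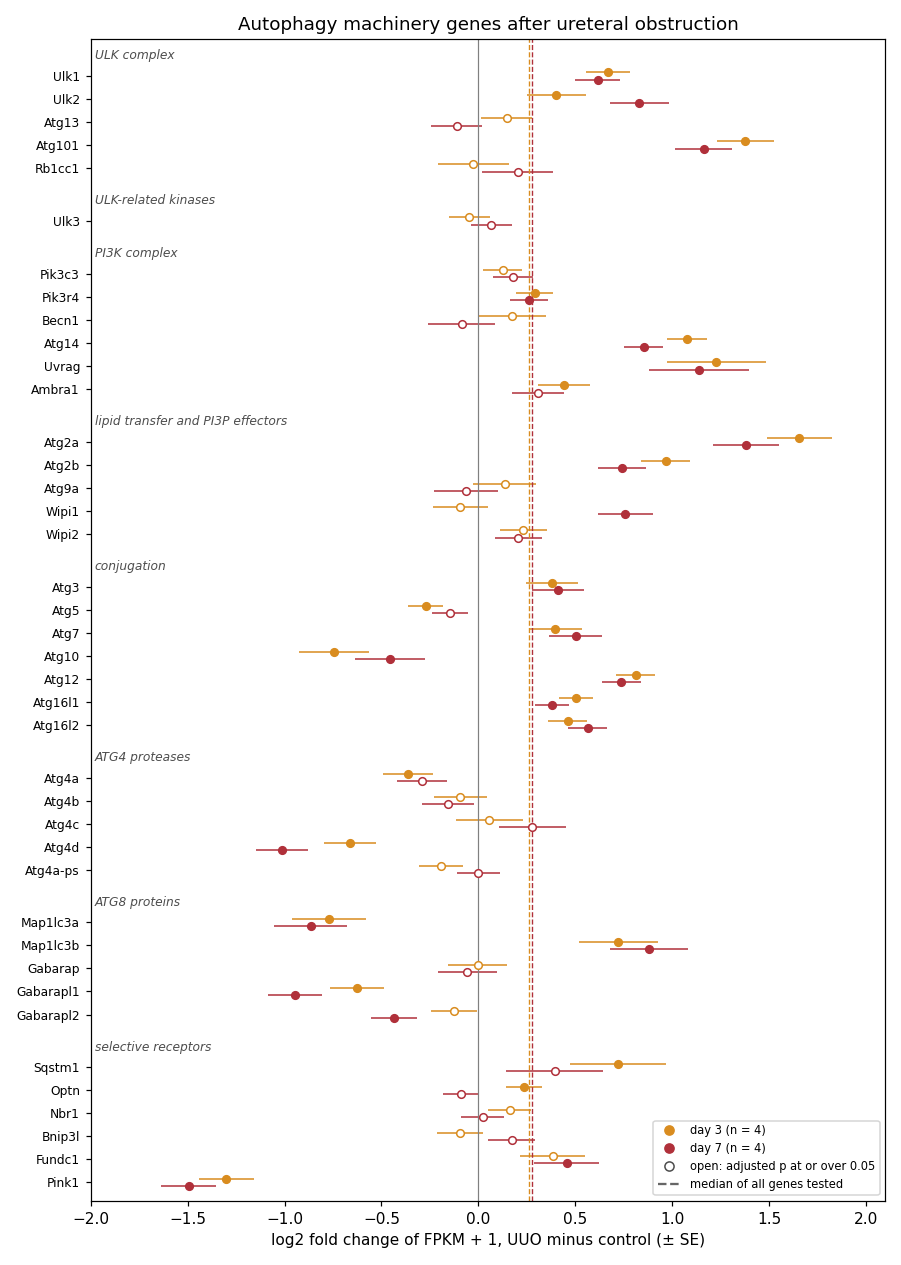
Log2 fold change of the 40 tested autophagy machinery genes at day 3 and at day 7 against control, grouped by role, from limma on log2(FPKM + 1). Bars are SE, open circles were not called, and dashed lines are the medians of all genes, 0.26 and 0.28. Atg2a, Atg101 and Uvrag stand farthest to the side of higher levels at both days and Pink1 farthest to the side of lower levels.

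**Figure D2:**
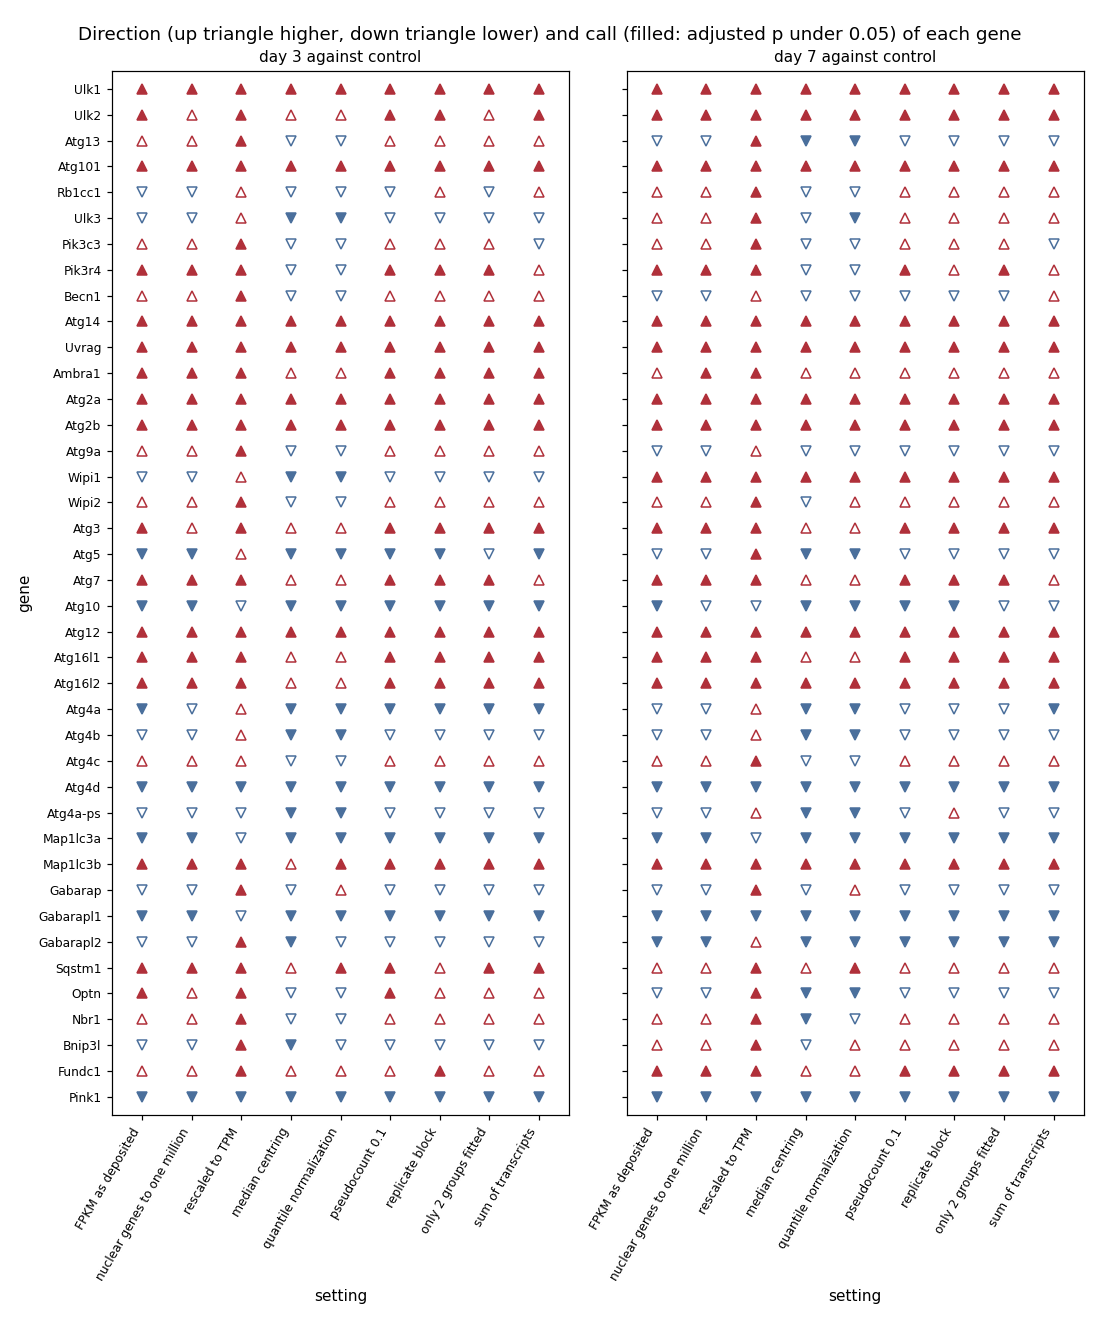
Direction and call of the 40 tested members under the FPKM as deposited and 8 other settings, for day 3 and day 7 against control; up triangles are higher, down triangles lower, and filled ones called at an adjusted p under 0.05. Rows such as Atg101, Atg2a, Atg4d and Pink1 keep 1 filled symbol throughout, while many open or small changes, such as Becn1 and Gabarap, turn with TPM, median centring or quantile normalization.

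In the ULK complex, which starts autophagosome formation, 3 of 5 members rose at each day. Counts by role, here and below, stand beside 44.4% of all genes called higher and 21.0% lower at day 3. At day 7 these shares were 46.3% and 23.5%, and nothing particular to a role is read from the counts. Ulk1 (ENSMUSG00000029512.11, chr5:110784488-110810097 on the minus strand of GRCm38), the kinase that receives the nutrient signal, had 13.6, 13.9, 13.04 and 16.3 FPKM at day 3, 12.6, 13.5, 14.1 and 14.2 FPKM at day 7 and 7.74, 9.85 and 8.11 FPKM in control. All libraries of both days lay above all controls, with log2FC 0.67 (SE 0.11, adjusted p = 0.000236) at day 3 and 0.61 (SE 0.11, adjusted p = 0.000395) at day 7. Atg101 (ENSMUSG00000037204.6, chr15:101284301-101290934), which stabilises Atg13 in the complex, changed most in this group, with 39.0, 40.0, 37.5 and 53.0 FPKM at day 3, 36.8, 41.6, 30.7 and 35.9 FPKM at day 7 and 15.4, 17.8 and 13.7 FPKM in control. Again no library overlapped the controls, and the log2FC was 1.38 (SE 0.15, adjusted p = 5.56e-06) and 1.16 (SE 0.15, adjusted p = 1.77e-05). Its binding partner Atg13 was not called at either day, with log2FC 0.15 (adjusted p = 0.344) and -0.11 (adjusted p = 0.456). Multiplying all genes of a library by 1 factor cannot move the ratio of Atg101 to Atg13, though quantile normalization can. As deposited this ratio was 3.94, 4.11, 3.80 and 4.61 at day 3, 5.13, 4.12, 3.92 and 4.14 at day 7 and 1.89, 1.66 and 1.57 in control. This ratio was higher in every obstructed library than in any control. Each gene pair given as a ratio, here and below, holds a member called in these same data. A ratio without overlap thus follows largely from that call and is no further support for it. The share of other gene pairs without overlap is not given. Ulk2, the close relative of Ulk1, rose, with log2FC 0.40 (SE 0.15, adjusted p = 0.0345) at day 3 and 0.83 (SE 0.15, adjusted p = 0.000355) at day 7. The day 3 call of Ulk2 was lost without day 3 replicate 1, 2 or 3 or control replicate 1 or 2 (adjusted p between 0.0691 and 0.119). The scaffold Rb1cc1, also named FIP200, and the ULK-related kinase Ulk3 were not called, with Rb1cc1 at log2FC -0.03 (adjusted p = 0.909) and 0.20 (adjusted p = 0.341) and Ulk3 at log2FC -0.05 (adjusted p = 0.705) and 0.07 (adjusted p = 0.59).

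In the PI3K complex 4 of 6 members rose at day 3 and 3 of 6 at day 7, and the highest fold changes were those of Atg14 and Uvrag, the subunits that set where the complex acts. Atg14 (ENSMUSG00000037526.7, chr14:47540893-47570649), which directs the complex to autophagosome formation, had 7.64, 8.76, 8.85 and 9.12 FPKM at day 3, 7.47, 7.33, 6.50 and 7.59 FPKM at day 7 and 3.39, 3.87 and 3.40 FPKM in control. It lay above control in every library of both days, with log2FC 1.07 (SE 0.10, adjusted p = 2.23e-06) at day 3 and 0.85 (SE 0.10, adjusted p = 1.11e-05) at day 7. Uvrag (ENSMUSG00000035354.9, chr7:98885021-99141141), which takes the place of Atg14 in the complex at endosomes, had 6.96, 7.49, 10.4 and 4.39 FPKM at day 3, 6.80, 4.54, 7.19 and 8.18 FPKM at day 7 and 1.86, 1.99 and 3.73 FPKM in control. Day 3 replicate 4 was the lowest obstructed library and still above the highest control, and the log2FC was 1.23 (SE 0.26, adjusted p = 0.00108) and 1.14 (SE 0.26, adjusted p = 0.00165). Becn1, the scaffold that binds Atg14 or Uvrag, had 14.2, 12.8, 9.76 and 12.1 FPKM at day 3, 13.2, 8.17, 11.1 and 8.14 FPKM at day 7 and 11.4, 9.35 and 11.2 FPKM in control. Its libraries overlapped between the groups, and its fold changes, 0.18 (adjusted p = 0.386) at day 3 and -0.09 (adjusted p = 0.67) at day 7, were not called and took the other sign under other scalings. With TPM Becn1 was called higher at day 3 (log2FC 0.60, adjusted p = 0.00997). The lipid kinase Pik3c3 was not called at either day, with log2FC 0.12 (adjusted p = 0.302) and 0.18 (adjusted p = 0.14). With TPM Pik3c3 was called higher at both days (log2FC 0.54, adjusted p = 0.00139, and 0.65, adjusted p = 0.000304). Its regulatory subunit Pik3r4 rose, with log2FC 0.29 (adjusted p = 0.0178) and 0.26 (adjusted p = 0.0278), small changes close to the median of all genes. The call was lost without day 3 replicate 1 or 2 or control replicate 1 (adjusted p between 0.0509 and 0.062) at day 3 and without day 7 replicate 4 or control replicate 1 or 2 (adjusted p between 0.0575 and 0.0858) at day 7. Ambra1, a regulator that binds Becn1, rose at day 3 with log2FC 0.44 (adjusted p = 0.0113) and was not called at day 7 with log2FC 0.31 (adjusted p = 0.0577). The day 3 call was lost without control replicate 1 (adjusted p = 0.0594), and at day 7 Ambra1 was called without day 3 replicate 4, day 7 replicate 1 or control replicate 2 (adjusted p between 0.0217 and 0.0481).

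Among the lipid transfer proteins and PI3P effectors, 2 of 5 rose at day 3 and 3 of 5 at day 7. Atg2a (ENSMUSG00000024773.14, chr19:6241668-6262335), which moves lipid from the endoplasmic reticulum into the growing membrane, had the highest fold change of all members tested. It stood at 15.2, 14.3, 22.4 and 20.1 FPKM at day 3, 12.6, 16.8, 15.8 and 13.1 FPKM at day 7 and 4.49, 5.96 and 4.48 FPKM in control, with no overlap. The log2FC was 1.66 (SE 0.17, adjusted p = 3.87e-06) at day 3 and 1.38 (SE 0.17, adjusted p = 1.33e-05) at day 7. Its paralogue Atg2b had 3.45, 4.00, 4.23 and 3.66 FPKM at day 3, 2.71, 3.70, 2.70 and 3.49 FPKM at day 7 and 1.54, 1.18 and 1.72 FPKM in control. Atg2b was the lower of the pair in every library and rose as well, with log2FC 0.97 (SE 0.13, adjusted p = 2.61e-05) and 0.74 (SE 0.13, adjusted p = 0.00019). Wipi1 (ENSMUSG00000041895.15, chr11:109573331-109611967), a PI3P-binding protein of the forming autophagosome, had 7.19, 6.56, 5.08 and 5.81 FPKM at day 3, 13.1, 12.2, 9.17 and 13.3 FPKM at day 7 and 6.34, 6.51 and 6.93 FPKM in control. Its day 3 libraries overlapped the controls, while every day 7 library stood above every library of both other groups. The log2 fold change was -0.09 (SE 0.14, adjusted p = 0.58) at day 3, 0.76 (SE 0.14, adjusted p = 0.000419) at day 7 and 0.85 (SE 0.13, adjusted p = 0.00149) for day 7 against day 3. At day 3 Wipi1 was called lower with median centring (log2FC -0.43, adjusted p = 0.0134) and quantile normalization (log2FC -0.40, adjusted p = 0.0188). Wipi2, the relative that recruits Atg16l1, was not called at either day, with log2FC 0.23 (adjusted p = 0.112) and 0.21 (adjusted p = 0.148), but leaving out control replicate 2 brought the adjusted p to 0.0332 and 0.0432. With TPM Wipi2 was called higher at both days (log2FC 0.66, adjusted p = 0.000468, and 0.69, adjusted p = 0.000309). The lipid scramblase Atg9a was not called either, with log2FC 0.13 (adjusted p = 0.485) and -0.06 (adjusted p = 0.738).

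**Figure D3:**
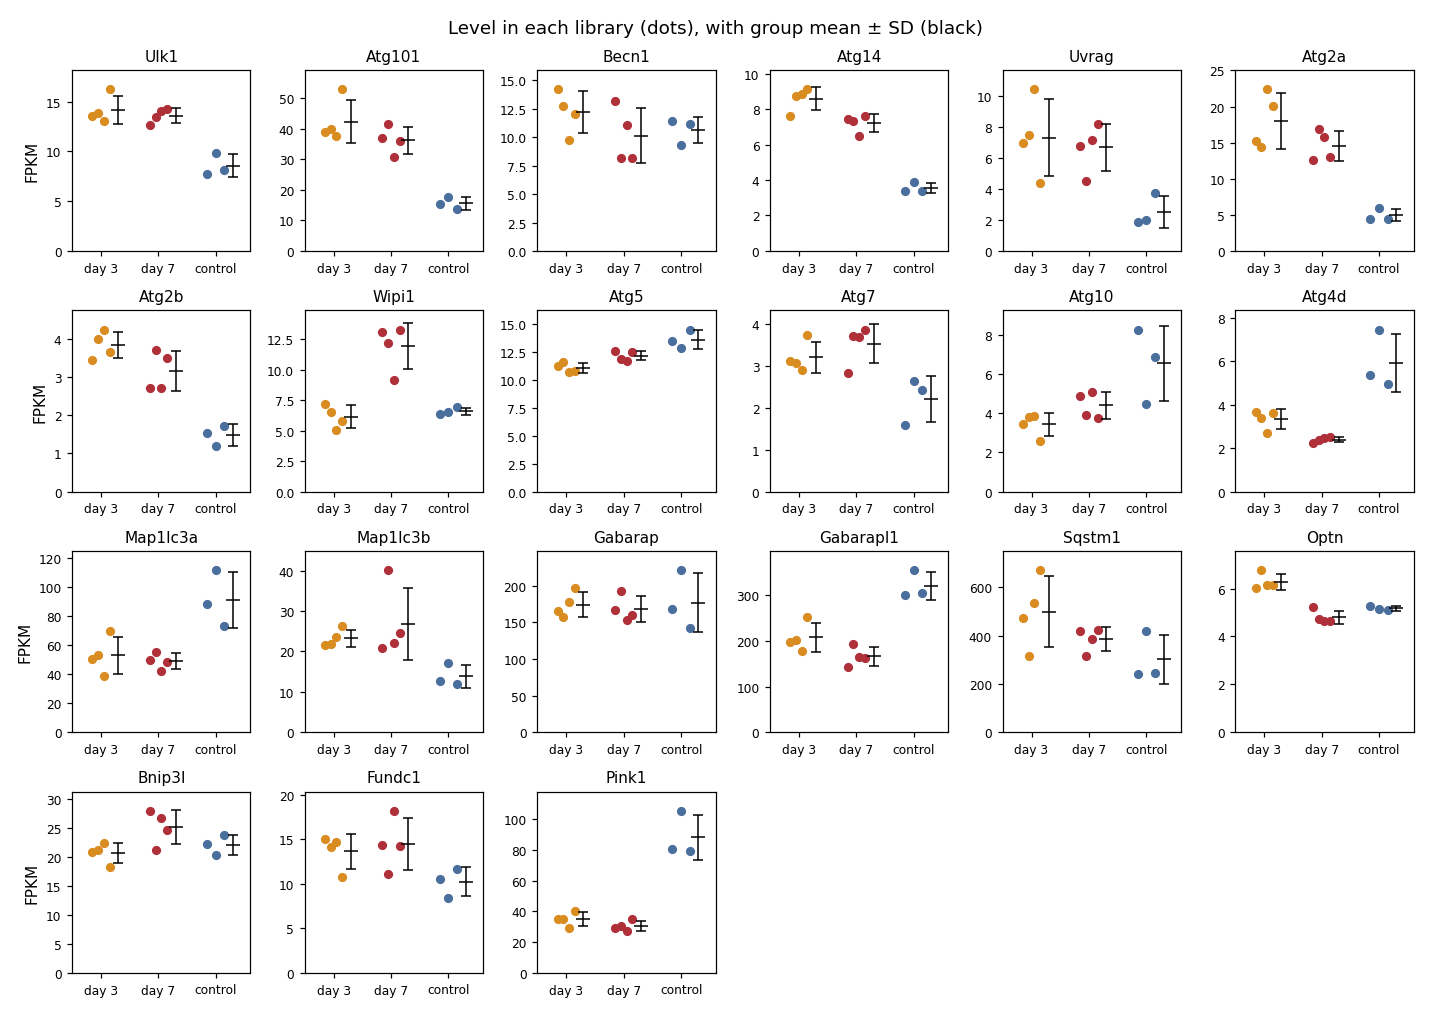
FPKM of named autophagy machinery genes in each library (dots) on a linear axis from 0, with day 3, day 7 and control side by side and the group mean ± SD in black. Atg101, Atg14 and Atg2a sit above control in all 8 obstructed libraries, Pink1 and Atg4d sit below it in all 8, and Wipi1 sits above in the 4 day 7 libraries.

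The conjugation enzymes split in direction: at day 3, 5 of 7 rose and 2 fell, and at day 7, 5 rose and 1 fell. Those that rose at both days were Atg3, Atg7, Atg12, Atg16l1 and Atg16l2, and those that fell at day 3 were Atg5 and Atg10. Atg7, the E1-like enzyme that activates both Atg12 and the ATG8 proteins, had 3.11, 3.08, 2.90 and 3.74 FPKM at day 3, 2.84, 3.71, 3.70 and 3.87 FPKM at day 7 and 1.595, 2.63 and 2.43 FPKM in control. It was called higher, with log2FC 0.40 (SE 0.14, adjusted p = 0.0232) at day 3 and 0.50 (SE 0.14, adjusted p = 0.00597) at day 7, and the day 3 call was lost without day 3 replicate 4 or control replicate 1 (adjusted p between 0.0599 and 0.137). Neither call of Atg7 held with median centring (log2FC 0.06, adjusted p = 0.708, and 0.20, adjusted p = 0.214), quantile normalization (adjusted p = 0.65 and 0.28) or summed transcripts (adjusted p = 0.115 and 0.0633). Atg10, the E2-like enzyme that passes Atg12 on to Atg5, had 3.47, 3.82, 3.87 and 2.58 FPKM at day 3, 4.91, 3.91, 5.08 and 3.75 FPKM at day 7 and 8.27, 4.48 and 6.88 FPKM in control. At day 3 all its libraries lay below control, and at day 7 they overlapped. The log2FC was -0.74 (SE 0.18, adjusted p = 0.00296) and -0.46 (SE 0.18, adjusted p = 0.0389), and the day 7 call was lost without day 7 replicate 2 or 4 or control replicate 1 or 3 (adjusted p between 0.0833 and 0.194). With TPM neither call of Atg10 held (log2FC -0.45, adjusted p = 0.0707, and -0.06, adjusted p = 0.814), nor did that at day 7 with summed transcripts (adjusted p = 0.162), nuclear genes rescaled (adjusted p = 0.0809) or only the 2 groups fitted (adjusted p = 0.0526). Atg5, the acceptor of Atg12, had 11.2, 11.6, 10.7 and 10.8 FPKM at day 3, 12.6, 11.9, 11.7 and 12.5 FPKM at day 7 and 13.5, 12.8 and 14.5 FPKM in control. Its libraries lay below control at both days, but as deposited only the day 3 difference was called, with log2FC -0.27 (SE 0.09, adjusted p = 0.0202), against -0.15 (SE 0.09, adjusted p = 0.171) at day 7, and the sign turned with TPM at both days. At day 7 Atg5 was called lower with median centring (log2FC -0.45, adjusted p = 0.000651) and quantile normalization (log2FC -0.34, adjusted p = 0.00496). With TPM it was called higher at day 7 (log2FC 0.31, adjusted p = 0.0129), so its direction there rests on the scale. The day 3 call of Atg5 was lost without control replicate 1 or 3 (adjusted p between 0.0506 and 0.0818). Atg12, the ubiquitin-like protein itself, rose to 35.0 ± 2.72 FPKM at day 3 and 33.2 ± 1.32 FPKM at day 7, against 19.5 ± 1.39 FPKM in control (SD, n = 4, 4 and 3). Its log2FC was 0.81 (SE 0.10, adjusted p = 1.79e-05) and 0.74 (SE 0.10, adjusted p = 3.17e-05). Of the Atg12 and Atg5 pair, whose products form 1 conjugate, the first thus rose and the second fell at day 3. Atg16l1, which brings that conjugate to the membrane, rose, with log2FC 0.50 (adjusted p = 0.00027) and 0.38 (adjusted p = 0.00187), and its paralogue Atg16l2 with log2FC 0.46 (adjusted p = 0.00146) and 0.56 (adjusted p = 0.000295). All calls of Atg16l1, and the day 3 call of Atg16l2, were lost with median centring and with quantile normalization. Atg3, the E2-like enzyme that hands ATG8 proteins to lipid, rose, with log2FC 0.38 (adjusted p = 0.0267) and 0.41 (adjusted p = 0.0165), and the calls were lost without day 3 replicate 1 or 2 or control replicate 1 or 2 (adjusted p between 0.0506 and 0.11) at day 3 and without control replicate 2 (adjusted p = 0.0735) at day 7.

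Promoter windows show what members of opposite change can share in sequence. The motif CACGTG, the E-box core bound by TFEB, TFE3 and many other factors, was searched with TCACGTGA, TGACNNNGC (antioxidant response element) and GTAAACA (forkhead), on both strands, in RefSeq windows of 250 bases before to 50 after each gene start (GRCm38.p6). TCACGTGA contains CACGTG, so a match to the longer motif counts in both. Windows matched 33 of the 41 members, some with more than 1 start, which gave 36 windows. CACGTG stood in the windows of Atg3, Atg5, Atg7 and Atg14, 11.1% of the 36, beside 7.15% of all 32851 windows. Of the 36 windows, 29 start within 500 bases of the gene start that the authors list. The windows of Atg3 (44 bases downstream) and Atg5 (19 bases upstream) do, whereas those of Atg14 and Atg7 start 2215 and 27999 bases downstream of it, inside the listed gene. Stretches before the RefSeq start of Atg3 and Atg5 are shown because these 2 conjugation genes were called in opposite directions at day 3. Neither call held on every scale. Atg3 had log2FC 0.04 (adjusted p = 0.788) with median centring, and Atg5 had log2FC 0.13 (adjusted p = 0.264) with TPM. Each CACGTG is in capitals, and both run 5′ to 3′ on the plus strand.
Atg3, chr16:45158705-45158793: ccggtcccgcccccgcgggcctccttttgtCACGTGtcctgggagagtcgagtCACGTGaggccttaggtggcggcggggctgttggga
Atg5, chr10:44268295-44268338: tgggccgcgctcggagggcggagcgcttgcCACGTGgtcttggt
The matches begin 94 and 71 bases before the RefSeq start in Atg3 and 14 bases before it in Atg5. CACGTG was found in 3 of the 12 windowed members that rose at both days and in 0 of the 4 that fell at both days, counting Atg7 and Atg14 with their downstream windows. Atg5, which carries the motif and was called lower at day 3 only, is in neither group. These counts are too small to link the motif to a direction. TCACGTGA stood in 1 member, Atg3 (2.78% of member windows, 0.974% of all), and TGACNNNGC in Atg13, Map1lc3b and Ulk2 (8.33% and 12.4%). GTAAACA was in 0 member windows and in 3.65% of all windows. A match is a description of these letters, not a site of binding.

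The ATG4 proteases, which trim ATG8 proteins before conjugation and free them from lipid afterwards, fell or were not called. Atg4d (ENSMUSG00000002820.6, chr9:21265293-21277772) had 3.64, 3.41, 2.69 and 3.61 FPKM at day 3, 2.23, 2.35, 2.48 and 2.502 FPKM at day 7 and 5.36, 7.44 and 4.95 FPKM in control. Every obstructed library lay below every control, and every day 7 library below every day 3 library. The log2FC was -0.66 (SE 0.13, adjusted p = 0.000832) at day 3, -1.01 (SE 0.13, adjusted p = 2.43e-05) at day 7 and -0.35 (SE 0.12, adjusted p = 0.0774) between the days. The difference between the days was called without day 3 replicate 3 or control replicate 2 (adjusted p between 0.0315 and 0.0327) and not with all libraries. Its locus overlaps Kri1 on the other strand. Atg4a fell at day 3 with log2FC -0.36 (adjusted p = 0.0259) and had log2FC -0.29 (adjusted p = 0.0612) at day 7, and the day 3 call was lost without day 3 replicate 4 or control replicate 1 or 3 (adjusted p between 0.0651 and 0.109). At day 7 Atg4a was called without day 7 replicate 3 or control replicate 2 (adjusted p between 0.0098 and 0.0485). Atg4b, the main ATG4 protease of mammalian cells, had log2FC -0.09 (adjusted p = 0.567) and -0.16 (adjusted p = 0.32), and Atg4c had log2FC 0.06 (adjusted p = 0.785) and 0.28 (adjusted p = 0.166), with no call at either day. With TPM Atg4c was called higher at day 7 (log2FC 0.77, adjusted p = 0.00505). Atg4b was called lower at both days with median centring and with quantile normalization. The row Atg4a-ps, whose suffix marks a pseudogene, was not called with log2FC -0.19 (adjusted p = 0.146) and -0.00099 (adjusted p = 0.994), and its reads cannot be told from those of Atg4a with certainty.

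The 5 ATG8 genes stood in other proportions after obstruction. Map1lc3a (ENSMUSG00000027602.9, chr2:155276297-155278073), which encodes LC3A, had 50.6, 53.4, 39.0 and 70.0 FPKM at day 3, 50.04, 55.5, 42.4 and 48.2 FPKM at day 7 and 88.5, 112 and 73.2 FPKM in control. Map1lc3b (ENSMUSG00000031812.16, chr8:121590361-121598760), which encodes the autophagosome marker LC3B, had 21.6, 21.9, 23.5 and 26.2 FPKM at day 3, 20.9, 40.1, 22.1 and 24.5 FPKM at day 7 and 12.6, 17.1 and 11.8 FPKM in control. The first lay below control and the second above it in all 8 obstructed libraries. Map1lc3a fell, with log2FC -0.77 (SE 0.19, adjusted p = 0.00327) at day 3 and -0.87 (SE 0.19, adjusted p = 0.00135) at day 7. Map1lc3b rose, with log2FC 0.72 (SE 0.20, adjusted p = 0.00717) and 0.88 (SE 0.20, adjusted p = 0.00185). With TPM both Map1lc3a calls were lost, with log2FC -0.36 (adjusted p = 0.096) and -0.40 (adjusted p = 0.0624). The day 3 call of Map1lc3b was lost with median centring, with log2FC 0.39 (adjusted p = 0.125). With summed transcripts Map1lc3b had log2FC 0.53 (adjusted p = 0.0107) and 0.43 (adjusted p = 0.0269), still called but smaller. Day 7 replicate 2 was the highest Map1lc3b library, and without it the log2 fold change at day 7 was 0.68. The ratio of Map1lc3a to Map1lc3b, in which any 1 factor per library cancels, was 2.35, 2.44, 1.66 and 2.67 at day 3, 2.39, 1.39, 1.91 and 1.97 at day 7 and 7.00, 6.54 and 6.19 in control. No library of either day came near a control. As both genes were called, in opposite directions, this ratio is no further support for the calls. The deposited value of the Map1lc3b gene was 0.408 to 0.432 of the sum of its transcripts at day 3, 0.438 to 0.707 at day 7 and 0.351 to 0.368 in control. With summed transcripts the ratio of Map1lc3a to Map1lc3b was 0.68 to 1.07 at day 3, 0.637 to 0.925 at day 7 and 2.03 to 2.35 in control, again lower in every obstructed library than in any control, with a smaller gap.

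Gabarapl1 (ENSMUSG00000030161.8, chr6:129533160-129542346), a GABARAP family member, had the highest mean FPKM of all members in control, within the spread of Sqstm1, with 198, 203, 177 and 252 FPKM at day 3, 142, 192, 166 and 163 FPKM at day 7 and 299.7, 354 and 305 FPKM in control. It fell, with log2FC -0.63 (SE 0.14, adjusted p = 0.00166) at day 3 and -0.95 (SE 0.14, adjusted p = 6.27e-05) at day 7, and the day 3 call was lost with TPM (log2FC -0.20, adjusted p = 0.18). Gabarap had 165, 158, 178 and 197 FPKM at day 3, 166, 193, 153 and 160.2 FPKM at day 7 and 168, 221 and 142 FPKM in control, with overlapping libraries and fold changes of -0.004 (adjusted p = 0.983) and -0.06 (adjusted p = 0.75) whose sign turned with TPM and with quantile normalization. With TPM Gabarap was called higher at both days (log2FC 0.42, adjusted p = 0.0175, and 0.42, adjusted p = 0.0163). The ratio of Gabarapl1 to Gabarap was 1.20, 1.29, 0.996 and 1.28 at day 3, 0.855, 0.994, 1.08 and 1.02 at day 7 and 1.78, 1.602 and 2.14 in control. This ratio was below the lowest control in every obstructed library, which follows largely from the Gabarapl1 calls and is no further support for them. Gabarapl2 fell only at day 7 among the comparisons called, with log2FC -0.44 (SE 0.12, adjusted p = 0.00573), with -0.13 (adjusted p = 0.369) at day 3 and -0.31 (adjusted p = 0.0791) between the days. With TPM the call of Gabarapl2 at day 7 was lost and its sign turned, with log2FC 0.03 (adjusted p = 0.796). At day 3 it was called lower with median centring (log2FC -0.46, adjusted p = 0.00513) and higher with TPM (log2FC 0.30, adjusted p = 0.0319), so its direction there rests on the scale. As shares of the summed ATG8 FPKM, Gabarapl1 averaged 41.1% ± 1.63 at day 3, 37.2% ± 2.29 at day 7 and 49.4% ± 3.10 in control (SD, n = 4, 4 and 3). Gabarap averaged 34.8% ± 2.83, 37.8% ± 1.51 and 27.0% ± 2.24 in the same groups, and Map1lc3b 4.65% ± 0.336, 5.94% ± 1.22 and 2.12% ± 0.114. Map1lc3a made up 10.49% ± 1.38, 11.02% ± 0.791 and 13.9% ± 1.10, and Gabarapl2 8.92% ± 0.333, 8.08% ± 0.577 and 7.55% ± 0.307. The sum of the 5 was 503 ± 63.9 FPKM at day 3, 446 ± 49.2 FPKM at day 7 and 651 ± 95.8 FPKM in control. These shares use the deposited gene values, which for Map1lc3b were a smaller part of the summed transcripts in control than after obstruction. Shares from summed transcripts are not given.

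**Figure D4:**
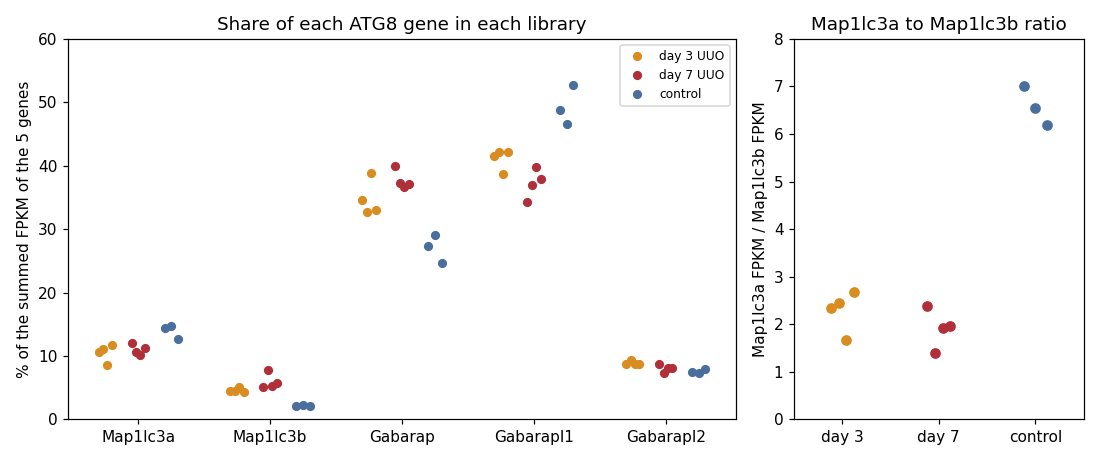
Share of the summed FPKM of the 5 ATG8 genes held by each gene, in percent, per library, with day 3, day 7 and control side by side, and the ratio of Map1lc3a to Map1lc3b on the right. Gabarapl1 takes 34.2% to 42.2% in the obstructed libraries and 46.7% to 52.7% in the controls, and Map1lc3b 4.38% to 7.72% and 2.05% to 2.25%. Both panels use the deposited gene values, and with summed transcripts the Map1lc3a to Map1lc3b gap is smaller.

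Among the genes of selective autophagy, Pink1 had the strongest fall of all members. Pink1 (ENSMUSG00000028756.12, chr4:138313409-138326307), the kinase that accumulates on damaged mitochondria and starts their removal, had 35.2, 35.3, 29.5 and 40.5 FPKM at day 3, 29.3, 30.5, 27.1 and 35.0 FPKM at day 7 and 80.2, 105 and 79.1 FPKM in control. All 8 obstructed libraries lay below all 3 controls, with log2FC -1.30 (SE 0.14, adjusted p = 6.34e-06) at day 3 and -1.50 (SE 0.14, adjusted p = 1.47e-06) at day 7. The share of the mitochondrial genome (at most 7.94% after obstruction and at least 25.4% in control) and the proximal tubule markers were lower in the same libraries, and their part in the Pink1 result was not tested. Bnip3l and Fundc1, mitophagy receptors of the outer mitochondrial membrane, gave other values than Pink1. The fall was not particular to Pink1, since Bnip3, the paralogue of Bnip3l outside the membership rule, was called lower at both days, as given below. Bnip3l had 20.9, 21.2, 22.4 and 18.3 FPKM at day 3, 27.9, 21.2, 26.8 and 24.7 FPKM at day 7 and 22.2, 20.4 and 23.8 FPKM in control, with log2FC -0.10 (adjusted p = 0.501) and 0.17 (adjusted p = 0.218), with a sign that turned with TPM at day 3 and with median centring at day 7. At day 3 Bnip3l was called lower with median centring (log2FC -0.43, adjusted p = 0.00775) and higher with TPM (log2FC 0.32, adjusted p = 0.0394). With TPM it was also called higher at day 7 (log2FC 0.65, adjusted p = 0.00054). Fundc1 had 15.01, 14.1, 14.6 and 10.7 FPKM at day 3, 14.3, 11.1, 18.2 and 14.3 FPKM at day 7 and 10.53, 8.43 and 11.7 FPKM in control. Its libraries overlapped at both days, and it was not called at day 3 with log2FC 0.38 (adjusted p = 0.0621). It was called there without day 3 replicate 4, day 7 replicate 2 or 3 or control replicate 3 (adjusted p between 0.023 and 0.0486). With all libraries it was called at day 3 with TPM (log2FC 0.82, adjusted p = 0.00151) and with the replicate block (log2FC 0.43, adjusted p = 0.0193). The Fundc1 call at day 7, with log2FC 0.46 (SE 0.17, adjusted p = 0.0286), was lost without day 7 replicate 1, 3 or 4 or control replicate 1 or 2 (adjusted p between 0.0512 and 0.122). The ratio of Pink1 to Bnip3l was 1.69, 1.67, 1.32 and 2.21 at day 3, 1.05, 1.44, 1.01 and 1.41 at day 7 and 3.61, 5.16 and 3.32 in control. This ratio lay below the lowest control in all 8 obstructed libraries, which follows largely from the Pink1 calls and is no further support for them.

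Sqstm1 (ENSMUSG00000015837.15, chr11:50199366-50210827), which encodes p62, the receptor for ubiquitinated cargo that is itself degraded by autophagy, had the highest mean FPKM of all members at both days. It stood at 473, 316, 536 and 669.6 FPKM at day 3, 421, 317, 384 and 422 FPKM at day 7 and 242, 419.7 and 244 FPKM in control. The groups overlapped at both days, since control replicate 2 stood above day 3 replicate 2 and above day 7 replicates 2 and 3. Sqstm1 was called at day 3 with log2FC 0.72 (SE 0.25, adjusted p = 0.0224) and not at day 7 with log2FC 0.39 (SE 0.25, adjusted p = 0.176). The day 3 call was lost without day 3 replicate 3 or 4 or control replicate 1 or 3 (adjusted p between 0.0539 and 0.0959), and at day 7 the gene was called without control replicate 2 (adjusted p = 0.0317), with a log2 fold change of 0.65. The day 3 call was also lost with the replicate block (log2FC 0.62, adjusted p = 0.0574) and with median centring (log2FC 0.39, adjusted p = 0.211). At day 7 Sqstm1 was called with TPM (log2FC 0.87, adjusted p = 0.00537) and with quantile normalization (log2FC 0.52, adjusted p = 0.049). Optn, a receptor for ubiquitinated mitochondria and bacteria, had 6.04, 6.76, 6.17 and 6.17 FPKM at day 3, 5.22, 4.71, 4.66 and 4.64 FPKM at day 7 and 5.29, 5.17 and 5.09 FPKM in control. The day 3 libraries stood above those of both other groups. Its rise at day 3, 0.24 (SE 0.09, adjusted p = 0.0381), was about the size of the median of all genes, and the call was lost in 14 of the 22 alternatives, among them without day 3 replicate 1, 2 or 4, day 7 replicate 2 or 4 or control replicate 1, 2 or 3 (adjusted p between 0.0506 and 0.101). The sign at day 3 turned with median centring and quantile normalization, and that at day 7, -0.09 (adjusted p = 0.39), with TPM. At day 7 Optn was called lower with median centring (log2FC -0.39, adjusted p = 0.00197) and quantile normalization (log2FC -0.39, adjusted p = 0.00172). With TPM it was called higher at day 7 (log2FC 0.35, adjusted p = 0.00803). Nbr1, a receptor with a domain structure like that of p62, was not called, with log2FC 0.16 (adjusted p = 0.214) and 0.02 (adjusted p = 0.873).

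Few members were called between the days. At day 7 against day 3, 1 member was called higher (Wipi1), 1 lower (Optn) and 38 were not called, 5% of those tested beside 15.7% of all genes (7.37% higher and 8.37% lower). The libraries of the 2 days did not overlap in 3 members that were higher at day 7 (Ulk2, Wipi1 and Atg5) and 5 that were lower (Atg14, Atg16l1, Atg4d, Gabarapl2 and Optn), where 7.83% and 12.5% of all genes did so. Wipi1 was called in all 22 alternatives. Optn, with log2FC -0.33 (SE 0.08, adjusted p = 0.0217), was lost without day 3 replicate 2 or day 7 replicate 2 or 4 (adjusted p between 0.0503 and 0.076). Ulk2 had log2FC 0.43 (adjusted p = 0.0586) and Gabarapl2 had log2FC -0.31 (adjusted p = 0.0791). Ulk2 was called without day 3 replicate 3 or day 7 replicate 2 (adjusted p between 0.0394 and 0.0395), and Gabarapl2 without day 3 replicate 3 (adjusted p = 0.0431). A member not called here is not shown to be equal at both days.

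Of the 82 listed transcripts of the members, 73 were tested, from the same reads as the gene values. At day 3, 15 were called higher and 7 lower (limma, adjusted over 23910 transcripts), 30.1% of the 73 beside 41.2% of all transcripts (27.6% higher and 13.7% lower). At day 7, 18 were higher and 6 lower, 32.9% beside 45.6% (29.1% and 16.5%). Between the days, both called transcripts belonged to Wipi1, where the shares of all transcripts were 4.26% (2.25% higher and 2.01% lower). Wipi1-201 had 3.34, 3.26, 2.67 and 2.72 FPKM at day 3, 5.06, 5.88, 4.23 and 7.44 FPKM at day 7 and 3.41, 2.99 and 3.33 FPKM in control, and Wipi1-202 had 9.81, 8.65, 6.47 and 8.04 FPKM at day 3, 19.4, 16.6, 12.6 and 16.2 FPKM at day 7 and 7.92, 9.10 and 9.08 FPKM in control. Both forms stood higher in every day 7 library than in any day 3 library, with log2FC 0.72 (adjusted p = 0.0314) and 0.89 (adjusted p = 0.0119). The Wipi1-201 call was lost in 9 of the 11 fits without 1 library, all but those without control replicate 2 or day 7 replicate 3 (adjusted p between 0.0514 and 0.0883), whereas that of Wipi1-202 was kept in all 11. Of the 22 members with 2 or more tested transcripts, none had transcripts called in opposite directions. In 5 at day 3 and 7 at day 7, a called transcript stood beside one that was not called. In Gabarapl1 the main form Gabarapl1-201 fell, with log2FC -0.63 (adjusted p = 0.00389) at day 3 and -0.95 (adjusted p = 0.000231) at day 7, while Gabarapl1-203, at 1.39 ± 0.305 FPKM at day 3 and 1.80 ± 0.631 FPKM in control, was not called, with log2FC -0.21 (adjusted p = 0.454) and -0.34 (adjusted p = 0.214). Ulk1-201 rose, with log2FC 0.73 (adjusted p = 0.0143) and 0.70 (adjusted p = 0.0157), and Ulk1-211 had log2FC 0.39 (adjusted p = 0.443) and 0.19 (adjusted p = 0.715). Both Ulk1-201 calls were lost without control replicate 3 (adjusted p = 0.06 and 0.065) and with median centring (adjusted p = 0.105 and 0.108). The minor form Gabarapl1-202, at 1.74 ± 0.451 FPKM at day 3, 1.26 ± 0.339 FPKM at day 7 and 2.88 ± 0.904 FPKM in control (SD), was not called at day 3 with log2FC -0.48 (adjusted p = 0.0925). It was called lower at day 7 with log2FC -0.76 (adjusted p = 0.0131), a call lost without control replicate 2 or 3 (adjusted p between 0.0527 and 0.0544) and with TPM (adjusted p = 0.0674). Map1lc3b-201, the main form, was called at day 3 with log2FC 0.47 (adjusted p = 0.0383) and not at day 7 with log2FC 0.36 (adjusted p = 0.0968), whereas the minor Map1lc3b-204 rose at both days, with log2FC 1.00 (adjusted p = 0.000875) and 0.96 (adjusted p = 0.000991). The Map1lc3b-201 call at day 3 was lost without day 3 replicate 2, 3 or 4 or control replicate 1 or 3 (adjusted p between 0.0537 and 0.145), and at day 7 this form was called without control replicate 2 (adjusted p = 0.0122). Nbr1-204 rose, with log2FC 0.73 (adjusted p = 0.00807) and 0.70 (adjusted p = 0.00901), although the gene was not called, and both calls were lost with median centring (adjusted p = 0.0824 and 0.0863).

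Genes around the machinery were counted by role, from lists outside the membership rule, and their counts stand beside 44.4% higher and 21.0% lower among all genes at day 3 and 46.3% higher and 23.5% lower at day 7. Nothing particular to a list is read from them, and with median centring they were 8, 5, 2 and 7 higher and 6, 2, 10 and 2 lower at day 3 for upstream regulators, phagophore partners, selective receptors and fusion genes, and at day 7 they were 7, 5, 2 and 2 higher and 9, 2, 11 and 3 lower. Of 25 upstream regulators, 12 rose and 2 fell at day 3, and 12 rose and 4 fell at day 7. Flcn, which acts on the mTORC1 branch that controls TFEB and TFE3, rose, with log2FC 1.72 (adjusted p = 1.01e-06) at day 3 and 1.50 (adjusted p = 1.99e-06) at day 7, and Tfe3, a transcription factor of lysosomal and autophagy genes, with log2FC 1.17 (adjusted p = 9.31e-06) at day 3. Sesn1, a stress-induced inhibitor of mTORC1, rose, with log2FC 1.31 (adjusted p = 8.04e-06) at day 7. The 2 regulators that fell at day 3 were Mtor, the kinase that restrains Ulk1, with log2FC -0.67 (adjusted p = 0.000255), and Prkaa2, an AMPK catalytic subunit that activates Ulk1, with log2FC -0.97 (adjusted p = 0.000529). At day 7 they fell, with log2FC -1.06 (adjusted p = 4.92e-06) and -1.37 (adjusted p = 2.86e-05). Mtor was also lower at day 7 than at day 3, with log2FC -0.39 (adjusted p = 0.029), as was Tfeb, with log2FC -0.62 (adjusted p = 0.0183). The Tfeb call was lost without day 3 replicate 4 or day 7 replicate 1 (adjusted p between 0.0554 and 0.0591). The Mtor call between the days was lost without day 3 replicate 1, 2 or 4 or day 7 replicate 1 or 3 (adjusted p between 0.0564 and 0.0957), with TPM (adjusted p = 0.0505), with only the 2 groups fitted (adjusted p = 0.0519) and with summed transcripts (adjusted p = 0.119).

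Of 14 phagophore and lipid partners, 7 rose at day 3, and 5 rose and 1 fell at day 7. Snx18, a membrane remodelling sorting nexin, rose, with log2FC 1.15 (adjusted p = 1.42e-05) and 1.28 (adjusted p = 4.34e-06), Wdr45b, a relative of the WIPI proteins, with log2FC 0.85 (adjusted p = 0.00018) at day 3 and the scramblase Vmp1 with log2FC 0.87 (adjusted p = 8.42e-06) at day 7. Wdr45, the close relative of Wdr45b, fell, with log2FC -0.47 (adjusted p = 0.016) at day 7, a call lost with TPM (adjusted p = 0.731) and without control replicate 2 (adjusted p = 0.0833). Of 18 tested genes for other selective receptors and mitophagy, 5 rose and 6 fell at each day. Tbk1, the kinase that phosphorylates Optn and p62, rose, with log2FC 1.25 (adjusted p = 2.55e-05) and 1.14 (adjusted p = 4.38e-05), Tollip, an adaptor for ubiquitinated cargo, with log2FC 0.90 (adjusted p = 0.00104) at day 3 and Stbd1, a glycogen-binding receptor, with log2FC 0.82 (adjusted p = 0.00084) at day 7. With summed transcripts Tbk1 had log2FC 0.41 (adjusted p = 0.399) and -0.20 (adjusted p = 0.683), so its call and, at day 7, its direction rest on the gene values. Stbd1 was called higher at day 7 than at day 3, with log2FC 0.52 (adjusted p = 0.0417). It kept that call without 1 library only where control replicate 2, day 3 replicate 1 or day 7 replicate 3 was left out (adjusted p otherwise between 0.0568 and 0.123). It also lost the call with summed transcripts and with only the 2 groups fitted. Bnip3, the paralogue of Bnip3l, fell, with log2FC -1.10 (adjusted p = 1.28e-05) and -1.22 (adjusted p = 4.34e-06), and the muscle ubiquitin ligase Trim63 with log2FC -2.22 (adjusted p = 1.11e-07) and -2.58 (adjusted p = 2.51e-08). Of 17 genes for tethering and fusion with the lysosome, 11 rose and 1 fell at day 3, and 8 rose and 1 fell at day 7. Vps18, a core subunit of the HOPS tether, rose, with log2FC 2.09 (adjusted p = 1.39e-07) and 1.97 (adjusted p = 1.18e-07), Plekhm1, an adaptor between Rab7, HOPS and ATG8 proteins, with log2FC 0.98 (adjusted p = 0.000245) at day 3, and the SNARE Snap29 with log2FC 0.68 (adjusted p = 0.000241) at day 7. With summed transcripts Vps18 had log2FC 0.80 (adjusted p = 0.386) and 1.04 (adjusted p = 0.249), and was not called. The gene that fell in this list was the SNARE Vamp8, with log2FC -0.52 (adjusted p = 0.00414) and -0.75 (adjusted p = 0.000259), calls that were lost with TPM (adjusted p = 0.492 and 0.0582). Vps33a, another HOPS subunit, was lower at day 7 than at day 3, with log2FC -0.45 (adjusted p = 0.00938). The median log2 fold changes of the 4 lists at day 3 were 0.27, 0.33, -0.10 and 0.51 in the order given here, beside 0.26 for all genes, and at day 7 they were 0.27, 0.28, -0.16 and 0.33, beside 0.28.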

How the data were processed

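RNA from 11 samples was sequenced: 4 at day 3 of UUO, 4 at day 7 and 3 controls, grouped by sample title. The authors deposited FPKM per gene and per transcript, per the file headers, after stranded library preparation per the labels' protocols. Tools named in the submitters' processing notes are HISAT2, StringTie and cutadapt, with GRCm38 as the genome. Their versions, the annotation release and whether counting used strand were not found in the labels or headers. The depth per sample is unknown, so no counting interval is given. Coordinates are those of the deposited table, and promoter windows are RefSeq's.

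Tests ran on log2(FPKM + 1), for 13428 genes whose mean over all libraries reached 0.5 FPKM. On that scale a fold change understates what a low gene did. One limma 3.58.1 model (R 4.3.3; empirical Bayes with trend) held the 3 groups, with Benjamini-Hochberg adjustment over all genes in each of 3 comparisons and calls at an adjusted p under 0.05. The same was run on 23910 transcripts, and the script was tested on simulated data. Adjusted p-values are limma's throughout. The members and lists were chosen with earlier results of these data known. Values per library are given for the 5 largest called rises and falls per comparison with control, the 5 largest called changes between the days, and Ulk1, Becn1, Atg5, Atg7, Map1lc3a, Map1lc3b, Gabarap, Sqstm1, Pink1, Bnip3l and Fundc1. Of each gene list, the 2 largest called rises and falls per comparison are named. The 2 comparisons with control share the 3 control libraries. The alternatives were other scalings (TPM, nuclear genes only, median centring, quantile normalization), pseudocount 0.1, no filter, a minimum mean of 2 FPKM, no trend, fits of only the compared groups, a replicate block, each library left out, and, added after seeing the data, genes as sums of their transcripts. Of the members, 9 overlap another listed gene, each on the other strand: Atg4d, Sqstm1, Atg4b, Map1lc3b, Atg9a, Becn1, Ulk4, Atg2b and Atg16l2. Figures were drawn in matplotlib 3.10.9 under Python 3.11.15, with tables handled in pandas 2.3.3.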

Additional observations from a re-analysis of the deposited data

Results flagged for a closer look

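Single libraries stood off from the rest of their group in 7 of the 82 groups of 4 libraries examined, by a gap that Dixon's criterion passes by chance in about 1 of 20 groups. Day 3 replicate 4 held the highest value in 3 of them: Atg13 at 11.48 FPKM, with the others at 9.729 to 9.888 FPKM, Atg101 at 52.98 FPKM, with the others at 37.49 to 39.96 FPKM, and Wipi2 at 12.46 FPKM, with the others at 10.22 to 10.49 FPKM. Atg12, the ubiquitin-like partner of Atg5, stood at 39.05 FPKM in day 3 replicate 3 and at 33.07 to 33.98 FPKM in the others. In day 7 libraries, Atg7 was low at 2.843 FPKM in replicate 1 (others 3.703 to 3.867 FPKM), Atg4c low at 3.449 FPKM in replicate 2 (others 4.541 to 4.603 FPKM) and Optn high at 5.216 FPKM in replicate 1 (others 4.643 to 4.714 FPKM). What these values share was not tested.

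The effect of obstruction differed between the 2 times in 2 members by limma's test of day 7 against day 3, with p adjusted over all genes. Wipi1 was higher at day 7, with a log2 difference of 0.85 (adjusted p = 0.00149, with all 4 day 7 libraries above all 4 day 3 libraries). Optn was lower at day 7, with a log2 difference of -0.33 (adjusted p = 0.0217, all 4 day 7 libraries below all 4 day 3 libraries). Optn lost this call without day 3 replicate 2, day 7 replicate 2 or day 7 replicate 4, at adjusted p = 0.076, 0.0503 and 0.0707.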

How the results depend on the processing

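Counts of called members moved mainly with the scaling. With TPM they were 27 higher and 2 lower at day 3, and 29 higher and 3 lower at day 7. With median centring they were 7 higher and 13 lower at day 3, 13 lower at day 7, and 2 higher for day 7 against day 3. Quantile normalization gave 9 higher and 11 lower at day 3, 13 lower at day 7, and 2 higher and 2 lower between the days. Leaving out each library in turn gave 10 to 19 higher and 5 to 7 lower at day 3, 14 to 17 higher and 5 to 7 lower at day 7, and 1 to 2 higher and 0 to 3 lower between the days. Transcripts numbered 23 higher and 1 lower at day 3 with TPM, and with median centring 7 higher and 12 lower at day 3 and 9 higher and 13 lower at day 7. Without 1 library they were 12 to 15 higher and 4 to 7 lower at day 3, 15 to 20 higher and 5 to 7 lower at day 7, and 1 to 2 higher and 0 to 0 lower between the days. Of all genes, 1700 were lower at day 3 with TPM, 4701 with median centring and 4358 with quantile normalization, against 2816 as deposited, and 3743 were higher with median centring, against 5957; at day 7, 1967 were lower with TPM, against 3162, and between the days 604 were higher with a minimum mean of 2 FPKM, against 990. Scaling shifts the zero of every gene by construction; other causes were not tested.

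Among the 21 genes named, the sign of the log2 fold change turned in these cases. At day 3, Becn1 was at -0.16 with median centring and -0.095 with quantile normalization, and Optn at -0.10 and -0.087. With TPM at day 3, Wipi1 was at 0.30, Atg5 at 0.13, Gabarap at 0.42 and Bnip3l at 0.32, and Gabarap was at 0.047 with quantile normalization. At day 7, TPM put Becn1 at 0.37, Atg5 at 0.31, Gabarap at 0.42 and Optn at 0.35. Becn1 was at 0.17 with summed transcripts, Gabarap at 0.046 with quantile normalization and Bnip3l at -0.13 with median centring. Between the days, Ulk1 was at 0.023 with quantile normalization and Map1lc3b at -0.10 with summed transcripts. Without 1 library, Gabarap ranged between -0.15 and 0.17 at day 3, and at day 7 Gabarap ranged between -0.20 and 0.11 and Becn1 between -0.21 and 0.0007. Between the days the ranges were -0.091 to 0.0083 for Ulk1, -0.28 to 0.080 for Uvrag, -0.23 to 0.045 for Map1lc3a, -0.045 to 0.26 for Map1lc3b, -0.12 to 0.0082 for Gabarap and -0.037 to 0.18 for Fundc1.

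Whether replicate numbers pair the samples was not settled. Of 10 same-numbered pairs, 6 had residual correlations over 0.1 (range -0.14 to 0.43), and the other 30 pairs ranged between -0.47 and 0.52. Ranges that overlap cannot exclude a pairing. With a replicate block the members counted 16 higher and 7 lower at day 3, 15 and 6 at day 7, and 1 and 1 between the days. The block ended the day 3 calls of Sqstm1 and Optn and the day 7 call of Pik3r4. With it Fundc1 was called higher at day 3. Over all alternatives, 410 values kept direction and call at day 3, 426 at day 7 and 446 between the days. The groups of 3 or 4 libraries and the unknown depth limit what can be seen in members below about 1 FPKM, such as Ulk4 and Atg4a-ps.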

Other observations

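Some transcript values of members switched between libraries of 1 group in a way the gene values did not. Sqstm1-205 was listed at 0 in 9 of 11 libraries and at 144 FPKM in day 3 replicate 2 and 169 FPKM in day 7 replicate 2, the libraries in which Sqstm1-201 was lowest of its group, at 45.3 and 36.0 FPKM. Atg14-202 ranged between 0 and 8.43 FPKM at day 3, Pik3r4-210 between 0 and 5.40 FPKM at day 3 and between 0 and 5.04 FPKM at day 7, and Atg13-201 between 0 and 11.2 FPKM and between 0 and 8.22 FPKM. In 8 of 41 members the gene value divided by the sum of the transcript values moved by more than 1.5 times between libraries, and the median of this ratio over libraries ran between 0.430 and 1.34 across members. How the authors' tool divides fragments among transcripts was not tested.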
